A study of Mus musculus with 32 samples.

Results

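The Ifi200 genes described here are Ifi202b, Ifi203, Ifi204 and Ifi205, 4 genes of the family found by name in the scanner files, of 28786 names in all. They are measured by 10 probes of 41174: 1 for Ifi202b and 3 for each of Ifi203, Ifi204 and Ifi205. They were chosen by measured values, the large late rise of the Ifi202b signal after irradiation, so changes within a line to 4 h carry no test for these genes, nor does any comparison of Ifi202b that includes 4 h arrays. The untreated arrays entered that rise too, so tests of Ifi202b that use them are not independent of the choice. The arrays measured RNA of thymocytes, the developing T cells of the thymus, from 6-week-old C57Bl/6 mice that were untreated (0 h) or taken 2 h or 4 h after 5 Gy of gamma radiation to the whole body. P72 mice carry proline and R72 mice carry arginine at codon 72 of p53, and each line had 4 arrays at each of 0, 2 and 4 h. The p53+/+ and p53-/- mice were each read on 2 arrays without treatment and on a single array at each of 2 h and 4 h. Each sample pooled 2 mice, 1 male and 1 female. The labels call the P72 and R72 arrays of a group independent experiments. They do not say whether the untreated p53+/+ or p53-/- arrays came from separate pools, so their spread may be technical. The series concerns how the codon 72 variants differ in the p53 response, with attention to NF-kB and to genes of immunity and inflammation.

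Ifi200 proteins, also called PYHIN or HIN-200 proteins, are induced by interferon and bind DNA through their HIN domains, and several also carry a pyrin domain that joins other proteins. Aim2, a member of the same family, senses DNA in the cytosol and assembles an inflammasome. The mouse genes lie side by side on chromosome 1, are much alike in sequence, and differ in number and expression between mouse strains. Ifi202b lacks the pyrin domain and is known to hold back Aim2, and Ifi204 is often described as a mouse counterpart of human IFI16. The C57BL/6J strain is known to lack the promoter and first exon of Ifi202b. The labels name the strain as C57Bl/6 and give no genotype at this locus.

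A probe reads only the stretch of RNA that it pairs with, so the sequences of the probes on which the results turn are given first. Positions follow the scanner files, which use build mm7, on the minus strand of chromosome 1, and the Ifi202b probe spans an interval of 1030 bases, longer than its 60 bases. Ifi205 is shown with 2 probes because they gave different sizes of change. All letters are in lower case because no stretch within a probe was singled out.
Ifi202b probe A_51_P151182, chr1:173928807-173929836: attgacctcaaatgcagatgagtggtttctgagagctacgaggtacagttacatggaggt
Ifi203 probe A_51_P237856, chr1:173886462-173886521: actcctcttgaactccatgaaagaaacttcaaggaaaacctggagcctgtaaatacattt
Ifi204 probe A_51_P408343, chr1:173721318-173721377: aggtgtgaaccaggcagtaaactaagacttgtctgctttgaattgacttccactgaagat
Ifi205 probe A_51_P377620, chr1:173981003-173981062: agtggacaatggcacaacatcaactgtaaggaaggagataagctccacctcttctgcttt
Ifi205 probe A_52_P435154, chr1:173992600-173992659: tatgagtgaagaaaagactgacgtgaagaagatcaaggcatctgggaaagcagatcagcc

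The Ifi202b probe shared at most 7 bases in a row with any of the other 9 member probes, and no 2 probes of different members shared more than 8. Cross-hybridisation to other family RNAs was not tested. The brightest Ifi205 probe, A_51_P377620, also lists accessions of Ifi204 and Ifi211 in the files, whereas A_52_P435154 lists only that of Ifi205. A value given for Ifi205 from A_51_P377620 can therefore hold signal of more than 1 gene.

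Promoter windows from RefSeq (build GRCm38.p6, 250 bases before to 50 after the annotated start) were found for 3 of the 4 members, with 2 windows for Ifi203, 1 of which is shown. They are given because the genes are neighbours whose changes differed so much in size. Since this build is of C57BL/6J, the Ifi202b window is what precedes the annotated start in that strain and may not be the promoter known from other strains. Capitals mark the AP-1 motif, which AP-1 factors bind.
Ifi202b, chr1:173982795-173983094, minus strand: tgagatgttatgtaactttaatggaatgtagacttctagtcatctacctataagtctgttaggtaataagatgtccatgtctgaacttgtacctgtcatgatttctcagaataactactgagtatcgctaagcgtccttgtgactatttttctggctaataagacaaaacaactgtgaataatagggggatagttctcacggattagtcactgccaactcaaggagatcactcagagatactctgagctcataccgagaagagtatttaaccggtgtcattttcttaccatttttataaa
Ifi203, chr1:173942443-173942742, minus strand: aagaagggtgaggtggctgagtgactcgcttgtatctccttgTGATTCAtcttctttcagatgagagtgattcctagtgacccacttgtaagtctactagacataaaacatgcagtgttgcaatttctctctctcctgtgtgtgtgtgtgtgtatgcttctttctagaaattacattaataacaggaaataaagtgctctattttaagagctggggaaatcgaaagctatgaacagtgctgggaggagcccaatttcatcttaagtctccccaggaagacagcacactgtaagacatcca
Ifi205, chr1:174031706-174032005, minus strand: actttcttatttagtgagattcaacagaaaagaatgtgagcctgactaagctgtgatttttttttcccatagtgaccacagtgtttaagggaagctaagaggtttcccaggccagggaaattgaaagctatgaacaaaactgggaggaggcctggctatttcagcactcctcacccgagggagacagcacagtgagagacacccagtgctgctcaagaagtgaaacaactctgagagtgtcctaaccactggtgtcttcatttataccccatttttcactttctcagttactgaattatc
Motifs were searched on both strands of the 32851 promoter windows of this length, of which those of 12 family genes were found. The AP-1 motif TGANTCA was in 7.81% of all windows and in windows of 3 of the 12 family genes, among them both Ifi203 windows, which overlap and share 1 match, 208 bases before the start of the one shown. The NF-kB consensus was in 8.46% of all windows and in 2 of these 12 genes, and the p53 half-site consensus was in 8.36% of all windows and in none of the 12. A match describes the letters only, and its absence says only that these letters are not in this window.

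Ifi202b was near the detection limit before irradiation and bright at 4 h in every line but p53-/-. As deposited, before arrays were scaled, its signal in P72 thymocytes was 3.12, 14, 4.81 and 4.49 fluorescence units at 0 h, 57, 14.4, 35 and 4.5 units at 2 h, and 325, 291, 195 and 305 units at 4 h. In R72 thymocytes it was 15.3, 31.4, 9.48 and 20.7 units at 0 h, 10.3, 23.7, 20.1 and 43.4 units at 2 h, and 457, 405, 203 and 337 units at 4 h. All 8 of these 4 h arrays stood far above the 16 earlier ones. The p53+/+ arrays read 33.5 and 14.5 units untreated, 13.4 units at 2 h and 273 units at 4 h. The p53-/- arrays read 19.3 and 23 units untreated, 14.3 units at 2 h and 33.3 units at 4 h. The 4 h p53+/+ array thus lay with the P72 and R72 arrays of that time, and the 4 h p53-/- array lay within the range of arrays taken earlier.

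From here on a level is the log2 signal minus the log2 75th percentile of its array, so that a positive level means a signal brighter than that percentile, and a change is a difference of mean levels. P72 levels of Ifi202b were −7.86, −5.17, −6.53 and −6.45 at 0 h, −3.18, −5.01, −3.86 and −5.95 at 2 h, and −0.44, −0.03, −0.74 and 0.18 at 4 h. R72 levels were −5.08, −4.40, −5.42 and −4.62 at 0 h, −5.55, −4.47, −4.65 and −4.57 at 2 h, and 0.07, 0.28, −0.78 and −0.19 at 4 h. In both lines the 4 h levels did not overlap with those at 0 h or 2 h. The scanner software called the spot well above background on 1 of 4 P72 arrays at 0 h and 3 of 4 at 2 h, on 3 of 4 R72 arrays at each of these times, and on all 8 arrays at 4 h. Over the series it did so on 25 of 32 arrays, so the lowest levels are only loosely measured.

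**Figure D1:**
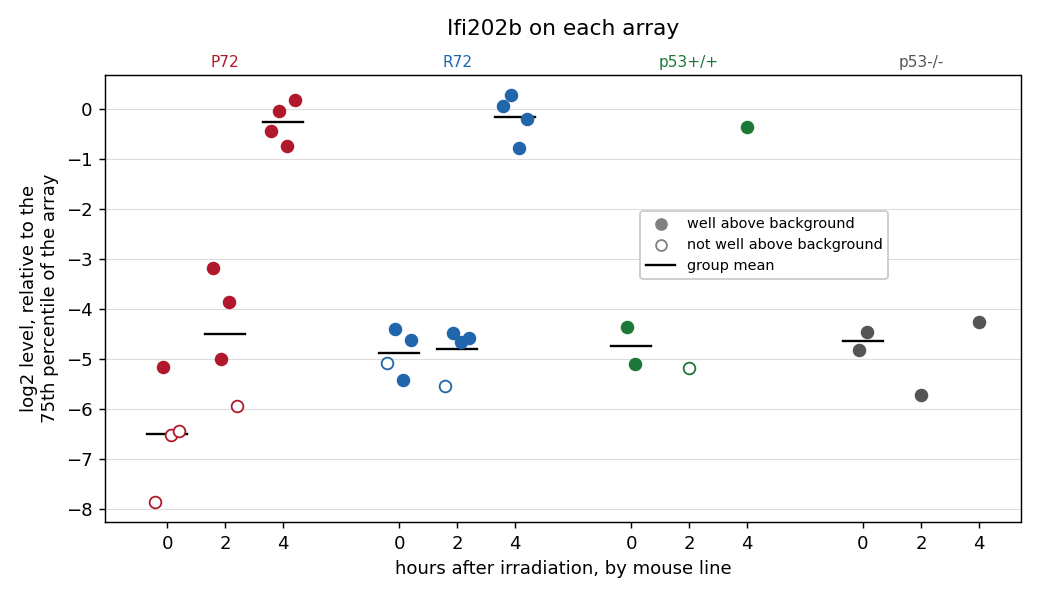
Level of Ifi202b on each of the 32 arrays (vertical axis, log2 relative to the array's 75th percentile) by mouse line and hours after irradiation, with open points where the spot was not well above background and bars for group means. The 9 arrays at 4 h other than p53-/- lie at −0.78 or higher, and the other 23 arrays lie at −3.18 or lower.

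The 12 group means of Ifi202b fell into 2 bands. The upper band held R72 at 4 h (−0.16 ± 0.46, SD, n = 4), P72 at 4 h (−0.26 ± 0.41, SD, n = 4) and the p53+/+ array at 4 h (−0.35), whose values overlap. The next level down was the p53-/- array at 4 h (−4.26), a gap of 3.91. Below it, in order, came P72 at 2 h (−4.50 ± 1.23, SD, n = 4), the untreated p53-/- arrays, the untreated p53+/+ arrays, R72 at 2 h (−4.81 ± 0.50, SD, n = 4), R72 at 0 h (−4.88 ± 0.46, SD, n = 4), p53+/+ at 2 h, p53-/- at 2 h (−5.72) and P72 at 0 h (−6.50 ± 1.10, SD, n = 4). Neighbours within the lower band differed by 0.07 to 0.78, which is within the spread of the 4 P72 arrays at 0 h.

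At 2 h Ifi202b rose in P72 thymocytes. Its fitted change was 2.00 ± 0.52 (SE), or 4.01-fold, with an adjusted p of 0.0131 in limma (Benjamini-Hochberg over all genes tested). This made 1 of the 4 members called at an adjusted p under 0.05, in a comparison where 14.5% of all 20534 genes were called. The 0 h arrays also entered the rise for which Ifi202b was picked, so this p is not independent of that choice. P72 at 0 h had the lowest mean of the 12 groups (−6.50). The P72 levels at 2 h and 0 h overlapped, since the lowest 2 h array (−5.95) lay below the highest 0 h array (−5.17). The call was lost without replicate 1 of P72 at 0 h (1.55, adjusted p 0.0582) or without replicate 1 at 2 h (1.56, adjusted p 0.0547). It was also lost under quantile normalization (1.68, adjusted p 0.0560), and under normexp background correction the change was 0.33 (adjusted p 0.282).

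In R72 thymocytes the change of Ifi202b at 2 h was 0.07 ± 0.52 (SE), with an adjusted p of 0.950. limma called 0 of the 4 members there, and 0 had an unadjusted p under 0.05, in a comparison where 13% of genes were called. The difference between the P72 and R72 changes at 2 h was 1.93 ± 0.73 (SE), with an unadjusted p of 0.0157 and an adjusted p of 0.934. It was thus not called, nor was any other member, and 0.00487% of genes were called in that comparison. A pass in P72 and none in R72 does not show that the lines differ.

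At 4 h the fitted change of Ifi202b against 0 h was 6.25 ± 0.52 (SE) in P72, or 75.9-fold, and 4.73 ± 0.52 (SE) in R72, or 26.5-fold. These are the values for which the gene was picked and carry no test. Between the highest 0 h array and the lowest 4 h array there was a gap of 4.43 in P72 and 3.62 in R72. Of all genes fitted, 32.4% in P72 and 27.4% in R72 were higher at 4 h with no overlap, and 56.6% and 44.8% of genes were called in these comparisons. Ordered from the highest change down, Ifi202b held rank 6 of 20534 genes in P72 and rank 18 in R72. Against 2 h the changes were 4.24 in P72 and 4.66 in R72, so most of the change fell between 2 h and 4 h. Because 3 of the 4 P72 arrays at 0 h were not well above background, the fold there rests on poorly measured signals. With each array's level raised to its lowest signal called well above background, an alternative added after seeing the data, the P72 change was 5.26 and the R72 change 4.71. Under normexp background correction with quantile normalization the changes were 2.61 in P72 and 2.49 in R72, and in the authors' value table they were 3.35 and 3.07, so the size and the fold depend on the processing.

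P72 and R72 thymocytes were also compared at each time. Before irradiation Ifi202b averaged −6.50 in P72 and −4.88 in R72, a difference of −1.62 ± 0.52 (SE) with an unadjusted p of 0.00523 and an adjusted p of 0.184. It was not called, and 0.925% of genes were. These 0 h arrays also entered the rise for which Ifi202b was picked, so this p is not independent of that choice. With 3 of the 4 P72 arrays not well above background, the size of the difference is poorly measured. It was −0.66 with the floor just described, −0.42 in the authors' value table and −0.20 under normexp, and leaving out 1 array gave −2.07 to −1.17. At 2 h the difference was 0.31 ± 0.52 (SE, adjusted p 0.792), where 1.29% of genes were called. At 4 h it was −0.10 ± 0.52 (SE) and was not tested. For Ifi203, Ifi204 and Ifi205, by their brightest probes, these differences lay between −0.23 and 0.04 at the 3 times. limma called 0 of them, and 0 had an unadjusted p under 0.05, with the lowest adjusted p at 0.314, for Ifi203 at 2 h, and 1.26% of genes called at 4 h. With every probe fitted on its own, A_51_P408346 of Ifi204 differed by −0.34 at 0 h (limma, unadjusted p 0.0182, adjusted p 0.355).

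The p53+/+ and p53-/- lines show Ifi202b with and without p53, on few arrays. Untreated, the levels were −4.36 and −5.10 in p53+/+ and −4.83 and −4.46 in p53-/-. The difference was −0.08 ± 0.71 (SE), with an adjusted p of 0.988, in a comparison that called 0.711% of genes. limma called 0 of the 4 members, and 0 had an unadjusted p under 0.05. At 2 h the single arrays read −5.19 in p53+/+, not well above background, and −5.72 in p53-/-. At 4 h they read −0.35 in p53+/+ and −4.26 in p53-/-, a 15-fold difference in signal relative to the 75th percentile. Against the untreated mean, the 4 h array was 4.38 higher (20.8-fold) in p53+/+ and 0.39 higher (1.31-fold) in p53-/-. No replicate stands behind either 4 h array, and since 4 h arrays chose the gene these values carry no test. Both irradiated p53+/+ arrays shared a slide, and both irradiated p53-/- arrays shared a different slide. Line thus goes with slide in every comparison of the irradiated p53 lines, here and below. Each line had an untreated array on each of these slides.

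By their brightest probes, Ifi203, Ifi204 and Ifi205 were bright before irradiation and changed little beside Ifi202b. Their dimmer probes are given further below, among them A_52_P435154 of Ifi205, which changed more. The Ifi203 levels (A_51_P237856) in P72 were 1.27, 1.74, 1.56 and 1.45 at 0 h, 1.77, 1.48, 1.49 and 1.56 at 2 h, and 1.91, 1.98, 1.80 and 2.16 at 4 h. In R72 they were 1.76, 1.65, 1.71 and 1.68 at 0 h, 1.74, 1.53, 1.80 and 2.13 at 2 h, and 1.95, 1.92, 1.93 and 2.03 at 4 h. The 4 h arrays lay above the 0 h arrays with no overlap in both lines, by gaps of 0.06 in P72 and 0.16 in R72. p53+/+ read 1.54 and 1.81 untreated, 1.87 at 2 h and 2.00 at 4 h, and p53-/- read 1.68 and 1.49 untreated, 1.87 at 2 h and 2.04 at 4 h. At 4 h p53+/+ and p53-/- thus differed by −0.04 for Ifi203, where they differed by 3.91 for Ifi202b.

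The Ifi204 levels (A_51_P408343) in P72 were 1.48, 1.90, 1.83 and 1.58 at 0 h, 1.92, 1.72, 1.73 and 1.71 at 2 h, and 1.80, 2.04, 2.03 and 2.03 at 4 h. In R72 they were 1.97, 1.76, 2.04 and 1.83 at 0 h, 1.96, 1.56, 1.79 and 1.77 at 2 h, and 2.17, 1.97, 1.84 and 2.05 at 4 h. All times overlapped with 0 h. p53+/+ read 1.86 and 1.81 untreated, 1.87 at 2 h and 2.09 at 4 h, and p53-/- read 1.88 and 1.81 untreated, 1.74 at 2 h and 2.00 at 4 h.

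The Ifi205 levels from its brightest probe (A_51_P377620) in P72 were 3.24, 3.78, 3.86 and 3.66 at 0 h, 3.70, 3.70, 3.87 and 3.61 at 2 h, and 4.03, 4.09, 4.24 and 4.13 at 4 h. In R72 they were 4.08, 3.61, 3.96 and 3.70 at 0 h, 3.81, 3.60, 3.99 and 4.24 at 2 h, and 4.11, 3.93, 4.13 and 4.15 at 4 h. The 4 h and 0 h arrays did not overlap in P72 and overlapped in R72. p53+/+ read 3.58 and 3.53 untreated, 3.80 at 2 h and 4.07 at 4 h, and p53-/- read 3.46 and 3.42 untreated, 3.67 at 2 h and 3.96 at 4 h.

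At 2 h the fitted changes of Ifi203, Ifi204 and Ifi205 were 0.07, 0.07 and 0.08 in P72 (adjusted p 0.733, 0.696 and 0.725), and 0.10, −0.13 and 0.07 in R72 (adjusted p 0.599, 0.445 and 0.763). At 4 h they were 0.46 ± 0.11, 0.28 ± 0.11 and 0.49 ± 0.14 (SE) in P72, and 0.26 ± 0.11, 0.11 ± 0.11 and 0.24 ± 0.14 (SE) in R72, but with arrays centred on their median they were −0.14, −0.31 and −0.10 in P72, and −0.20, −0.35 and −0.22 in R72. The direction of these 3 genes at 4 h, as read by their brightest probes, therefore depends on the scaling. That of Ifi202b does not (5.66 in P72 and 4.27 in R72 with median centring). Median centring moved the median change of all genes to −0.49 in P72 and −0.36 in R72, where it was 0.11 and 0.09 with the 75th percentile. The share of called genes that were higher at 4 h was 63.2% in P72 and 64.3% in R72 with the 75th percentile, 27.9% and 26.8% with median centring, and 51.9% and 55% with quantile normalization.

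**Figure D2:**
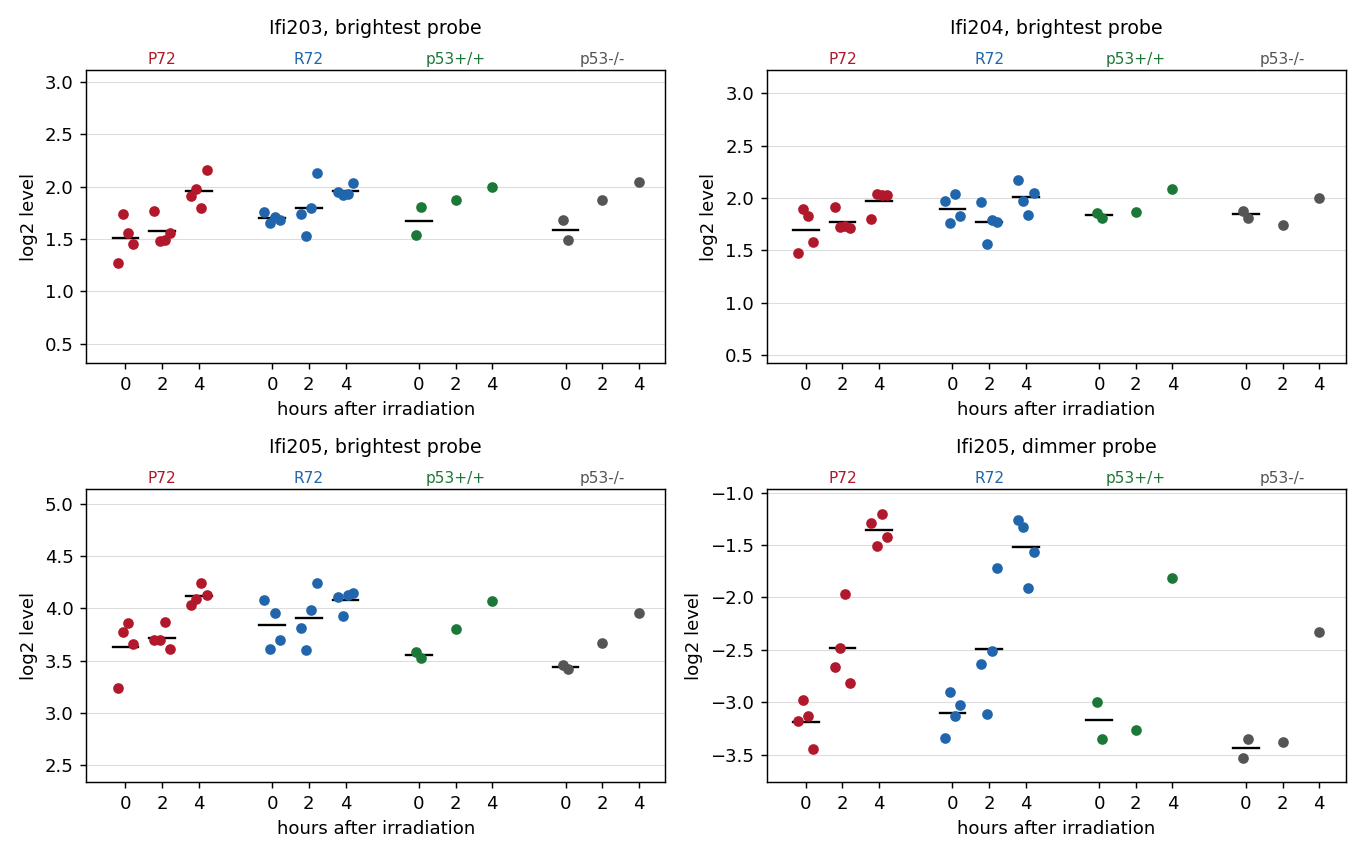
Levels on each of the 32 arrays (vertical axes, log2 relative to the array's 75th percentile) of the brightest probes of Ifi203, Ifi204 and Ifi205 and of the dimmer Ifi205 probe A_52_P435154, by mouse line and hours after irradiation, with bars for group means. All panels span about the same log2 range, and the dimmer Ifi205 probe moves over −3.53 to −1.20 while the brightest probes stay within a range of 1 or less.

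The 2 measurable Ifi205 probes disagreed in size. A_52_P435154, which lists the Ifi205 accession alone, read −3.18, −2.98, −3.13 and −3.45 at 0 h, −2.66, −2.48, −1.97 and −2.82 at 2 h, and −1.29, −1.51, −1.20 and −1.42 at 4 h in P72. In R72 it read −3.34, −2.90, −3.13 and −3.03 at 0 h, −2.64, −3.11, −2.51 and −1.72 at 2 h, and −1.26, −1.33, −1.91 and −1.57 at 4 h. The 4 h arrays stood above the 0 h arrays in both lines with no overlap. Its change at 4 h was 1.83 ± 0.22 (SE) in P72 and 1.58 ± 0.22 (SE) in R72, or 3.55-fold and 2.99-fold, with no test, and stayed above 0 with median centring (1.24 in P72 and 1.12 in R72).

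With every probe fitted on its own, A_52_P435154 of Ifi205 was higher at 2 h by 0.70 ± 0.22 (SE) in P72 (1.63-fold, adjusted p 0.0449) and by 0.60 ± 0.22 (SE) in R72 (adjusted p 0.0870), in comparisons where 12.6% and 11.6% of probes were called. The P72 call was thin: it held in 6 of 16 fits that left out 1 array at 0 h or 2 h, with adjusted p between 0.0122 and 0.138, and was lost with quantile normalization (adjusted p 0.168) and median centring (0.166). It was lost without P72 replicates 1, 3 or 4 at 0 h or 1, 2 or 3 at 2 h, and, since all 24 arrays share the estimate of spread, without R72 replicates 2, 3 or 4 at 0 h or 3 at 2 h. The R72 change passed the test without R72 replicate 2 at 2 h (0.81, adjusted p 0.0229).

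The same Ifi205 probe read −3.00 and −3.35 untreated, −3.27 at 2 h and −1.81 at 4 h in p53+/+. In p53-/- it read −3.53 and −3.35 untreated, −3.38 at 2 h and −2.33 at 4 h. Against the untreated mean the 4 h array was 1.37 higher in p53+/+ and 1.11 higher in p53-/-. For Ifi202b the 4 h array was 4.38 higher in p53+/+ and 0.39 higher in p53-/-, so the lines lay closer together for this Ifi205 probe. The difference was not tested. The last Ifi205 probe, A_52_P14103, was not well above background on any of 32 arrays and is left out.

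Among the other probes, A_52_P134762 of Ifi203 read 0.69 to 1.53 and A_51_P408346 of Ifi204 read −0.73 to 0.31 over the 32 arrays. Both were higher at 4 h than at 0 h with no overlap in P72 and overlapped in R72. A_52_P83479 of Ifi204 read −2.66 to −1.38 and overlapped at every time. In all, 6 of the 9 measurable member probes were higher at 4 h with no overlap in P72 and 3 in R72. The Ifi202b probe, picked for its 4 h rise, is among them. At 2 h 1 probe in P72 and 0 in R72 were higher with no overlap. The shares over all genes were 32.4% and 27.4% at 4 h, and 13.6% and 7.11% at 2 h. They count 1 probe per gene, so the count of member probes is not of the same kind. With median centring the fitted 4 h changes of A_52_P134762 and A_51_P408346 turned to −0.18 and −0.08 in P72, and to −0.32 and −0.15 in R72.

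The dim Ifi203 probe A_52_P263800 stood apart between mouse lines rather than times. Its untreated levels were −3.56 to −2.98 in P72 and −3.69 to −3.18 in R72, against −4.43 and −4.38 in p53+/+. The knock-in lines exceeded p53+/+ by 1.10 ± 0.24 (SE), with an adjusted p of 0.0120 over all probes, of which 3.88% were called. The call was lost without either p53+/+ array (1.12 and 1.08, adjusted p 0.0629 and 0.223) and with quantile normalization (0.91, adjusted p 0.0613). The p53 lines were on slides and a scan date of their own, so mouse line and slide cannot be told apart. At gene level limma called 0 of the 4 members between the knock-in lines and p53+/+, and 0 had an unadjusted p under 0.05, where 3.81% of genes were called. For Ifi202b that difference was −0.96 ± 0.56 (SE, adjusted p 0.347).

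**Figure D3:**
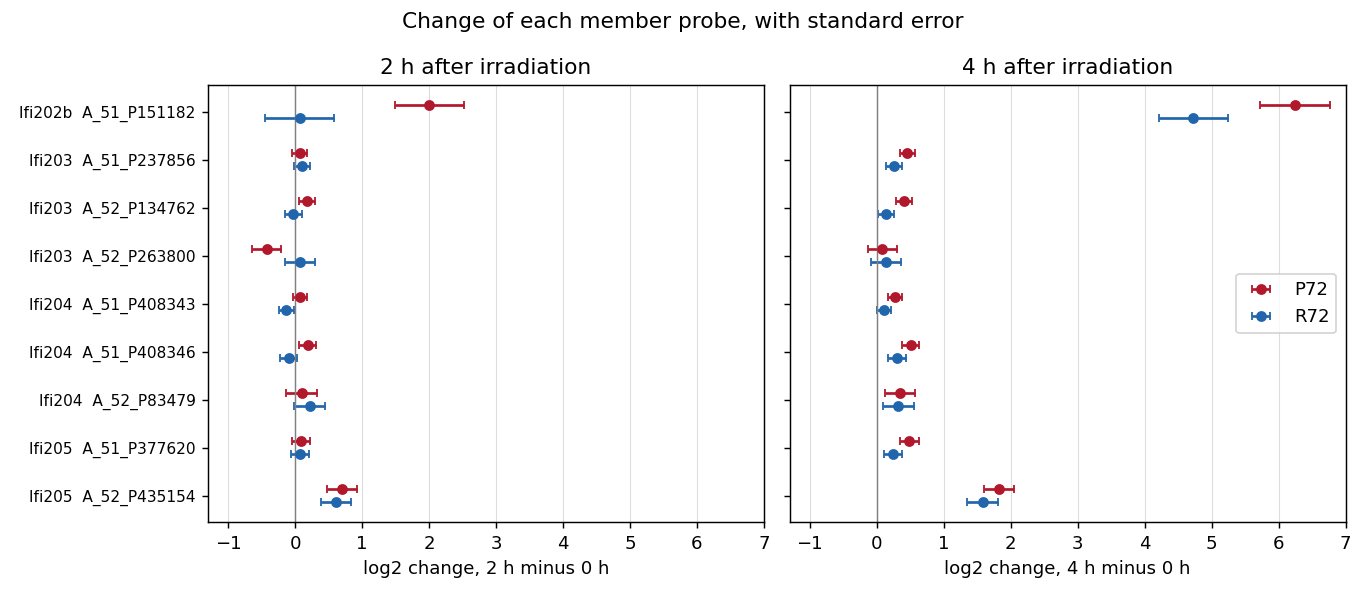
Fitted log2 change with its standard error of each of the 9 measurable member probes, at 2 h (left) and 4 h (right) against 0 h, for P72 (upper points) and R72 (lower points). Ifi202b is farthest from 0 at 4 h, A_52_P435154 of Ifi205 is next, and the other probes lie between 0.08 and 0.51, all of which turn negative with median centring.

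The fitted genes along the gene cluster differed in the size of their change. Between Aim2 and Ifi205 the annotation places 19 genes, of which 6 are on the array under their current names and 5 were fitted. Aim2 was not well above background on any array. Ifi209, another pyrin and HIN family gene, changed by 0.27 in P72 (adjusted p 0.0577) and 0.16 in R72 (adjusted p 0.288) at 4 h, and by −0.32 and −0.30 with median centring, and was called higher in P72 with quantile normalization (0.37, adjusted p 0.0116). Of the other family genes listed, 12 are not analysed here. Of all genes 35.8% in P72 and 28.8% in R72 were called higher at 4 h. On the side of Aim2, 5 of the 5 nearest fitted genes were called higher in P72 and 3 in R72. This was 4 and 3 with median centring, and 3 and 2 with quantile normalization. The nearest was Cadm3, a cell adhesion molecule, which rose by 1.77 in P72 (adjusted p 0.000185) and was at 0.83 in R72 (adjusted p 0.0525). On the side of Ifi205 the 5 nearest fitted genes are olfactory receptors, of which 4 were called higher in each line. With median centring it was 3 higher and 1 lower in P72 and 3 higher in R72. With quantile normalization 2 of these 5 were called higher in P72 and 3 in R72. The nearest, Olfr430, was at −0.02 in P72 (adjusted p 0.952) and rose by 0.74 in R72 (adjusted p 0.00399), where median centring gave 0.28. Within the cluster Ifi202b lies between Ifi203 and Ifi205, whose brightest probes changed by under 0.5, while the Ifi205 probe A_52_P435154 changed by 1.83 in P72 and 1.58 in R72.

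**Figure D4:**
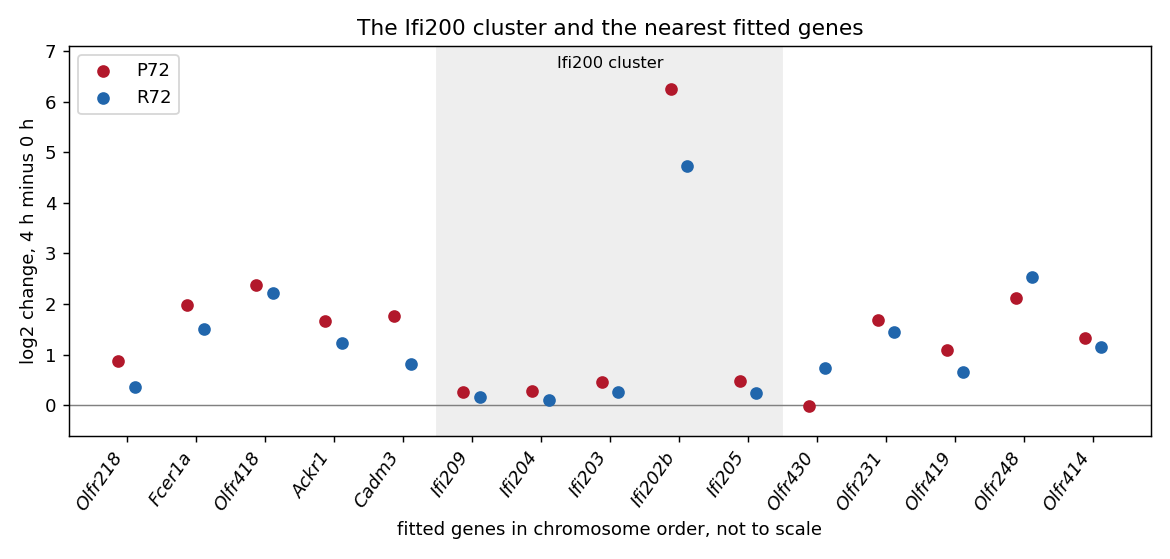
Fitted log2 change at 4 h against 0 h (vertical axis) of the 5 fitted genes of the Ifi200 cluster (shaded) and of the 5 nearest fitted genes on either side, in chromosome order and not to scale, for P72 and R72. Ifi202b stands at 6.25 in P72 and 4.73 in R72 among cluster genes whose brightest probes changed by 0.11 to 0.49, or by less than 0 with median centring. The dimmer Ifi205 probe A_52_P435154, at 1.83 and 1.58, is not drawn.

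The pathway around these genes was described from lists chosen with earlier results of these data known. Among interferon ligands 5 of 13 listed could be fitted, and 3 were called higher at 4 h in each line, where 35.8% of genes in P72 and 28.8% in R72 were called higher. Ifna12 rose by 3.64 ± 0.42 (SE) in P72 and 3.23 ± 0.42 (SE) in R72, with adjusted p of 9.89e-07 and 7.97e-06. Ifna1 rose by 2.82 in P72 and 2.91 in R72, and Ifna9 by 1.10 and 1.07. Ifnl3, a type III interferon, was not called in either line (adjusted p 0.115 in P72 and 0.103 in R72). With median centring Ifna12 and Ifna1 stayed called in both lines and Ifna9 in R72 (0.62, adjusted p 0.0271), while Ifna9 in P72 was at 0.51 (adjusted p 0.0551). Ifna12, Ifna1 and Ifna9 are type I interferons, the secreted signals that induce Ifi200 genes. At 2 h 1 ligand in P72 and 2 in R72 were already called higher, where 9.64% and 6.25% of genes were. Over both irradiated times, p53+/+ exceeded p53-/- by 2.31 for Ifna12 (adjusted p 0.00937) and by 1.29 for Ifna9 (adjusted p 0.0116), in a comparison where 21.8% of genes were called and 13.1% were called higher. Ifna1 was not called there (1.26, adjusted p 0.137). In the same comparison limma called 0 of Ifi203, Ifi204 and Ifi205, and 0 of these 3 genes had an unadjusted p under 0.05. The difference of the p53+/+ and p53-/- responses was called for 0 of the 5 ligands, and 3 had an unadjusted p under 0.05. Interferon RNAs are near-identical between family members, so a probe can read several of them, and Ifnb1 was too dim to be fitted.

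Of 17 genes of interferon receptors and signalling, 8 were called higher and 0 lower at 4 h in P72, and 5 higher and 1 lower in R72. Of all genes 35.8% in P72 and 28.8% in R72 were called higher, and 20.8% and 16% lower. The share called higher in R72 was thus near that of all genes. With median centring it was 1 higher and 10 lower in P72, and 1 higher and 7 lower in R72. Their median change was 0.23 in P72 and 0.20 in R72, beside 0.11 and 0.09 over all genes. Irf1, a transcription factor of the interferon response, rose by 0.74 in P72 (adjusted p 2.08e-06) and 0.50 in R72 (adjusted p 0.000241), but was at 0.15 and 0.04 and not called with median centring. Irf5, a transcription factor of interferon genes, rose by 1.25 in P72 (adjusted p 5.13e-06) and 0.78 in R72 (adjusted p 0.000944). Socs1, an inhibitor of JAK signalling, rose by 0.74 in P72 (adjusted p 3.66e-05) and 0.80 in R72 (adjusted p 2.97e-05). Irf7, which amplifies type I interferon, rose in P72 (0.67, adjusted p 0.00147), and its change in R72 was 0.32 (adjusted p 0.109), or −0.13 with median centring. With median centring Irf5 stayed called in P72 (0.66, adjusted p 0.00300) and Socs1 in R72 (0.35, adjusted p 0.0270), whereas Irf5 in R72 (0.32) and Socs1 and Irf7 in P72 (0.15 and 0.08) were not.

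Of 35 interferon-stimulated genes, 24 were called higher and 1 lower at 4 h in P72, with a median change of 0.56, and 21 higher and 0 lower in R72, with a median of 0.41, beside medians over all genes of 0.11 and 0.09. Of all genes 35.8% in P72 and 28.8% in R72 were called higher at 4 h, and 20.8% and 16% lower. The counts of the 35 genes also depend on the scaling, being 7 higher and 7 lower in P72 and 3 higher and 4 lower in R72 with median centring, and 26 higher in P72 and 25 in R72 with quantile normalization. At 2 h 6 of the 35 were called higher in P72 and 2 in R72, where 9.64% and 6.25% of all genes were. Cxcl10, a chemokine, rose by 2.80 ± 0.31 (SE) in P72 (adjusted p 4.58e-07) and 1.48 ± 0.31 (SE) in R72 (adjusted p 0.000605). Gbp3, a guanylate-binding protein, rose by 1.10 in P72 (adjusted p 6.06e-06) and 0.94 in R72 (adjusted p 6.3e-05), and stayed called with median centring (0.51 and 0.48). Ifitm3, which hinders virus entry, rose by 1.21 in P72 (adjusted p 1e-05) and 0.73 in R72 (adjusted p 0.00201), and with median centring it was called in P72 (0.62) but not in R72 (0.27). Mx1, an antiviral GTPase, rose by 1.24 in P72 (adjusted p 8.3e-06) and 0.87 in R72 (adjusted p 0.000485). With median centring Cxcl10 stayed called in both lines (2.20 and 1.03), and Mx1 in P72 (0.65, adjusted p 0.00372) but not in R72 (0.42, adjusted p 0.0555). Over both irradiated times 2 of the 35 were called higher and 2 lower in p53+/+ than in p53-/-. In that comparison 21.8% of all genes were called, and 13.1% were called higher. The median difference of the 35 genes was −0.05, beside 0.06 over all genes. Mx1 was higher by 1.09 (adjusted p 0.00371), while Cxcl10 differed by 0.37 (adjusted p 0.543). Of the 35, 9 were called higher after irradiation in p53+/+ and 1 in p53-/-, where 13.2% and 0.74% of genes were called higher. Their median change was however 0.21 in p53+/+ and 0.30 in p53-/-, and 10 in p53+/+ and 15 in p53-/- had an unadjusted p under 0.05. The difference of the p53+/+ and p53-/- responses was called for 1 of the 35, which was lower, as were 2.26% of genes.

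Of 14 genes of cytosolic nucleic acid sensing, 6 were called higher and 2 lower at 4 h in P72, and 5 higher and 2 lower in R72, shares near the 35.8% and 28.8% of all genes called higher and the 20.8% and 16% called lower, whereas with median centring 1 was higher and 9 lower in P72, and 0 higher and 9 lower in R72. Samhd1, which breaks down deoxynucleotides, rose by 1.21 in P72 (adjusted p 9.95e-07) and 0.78 in R72 (adjusted p 0.000192). Casp1, the caspase of inflammasomes, rose by 1.02 in P72 (adjusted p 9.76e-05) and 0.46 in R72 (adjusted p 0.0468). With median centring Samhd1 in P72 stayed called (0.62), whereas Samhd1 in R72 (0.32) and Casp1 in both lines (0.43 in P72 and 0.00173 in R72) were not. Rnaseh2b, a subunit of ribonuclease H2, fell by 1.00 in P72 (adjusted p 5.37e-05) and by 0.89 in R72 (adjusted p 0.000267). Pycard, the adaptor that Aim2 uses, fell by 0.72 in P72 (adjusted p 0.000335) and by 0.50 in R72 (adjusted p 0.00876), and both fell further with median centring.

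The genes whose levels followed Ifi202b most closely over the 24 P72 and R72 arrays were not members of its family. By Pearson correlation they were Bcar1 (0.967), an adaptor of integrin signalling, F3 (0.962), which is tissue factor, Srxn1 (0.96), a sulfiredoxin, Egfr (0.96), the EGF receptor, and Lilrb4a (0.959), an inhibitory receptor of myeloid cells. The arrays share the time course, so many genes correlate, and no test is attached. Ifi203 held rank 2666 of 20534 genes by this measure (0.764), Ifi205 held rank 4452 (0.684) and Ifi204 held rank 5033 (0.651). By Spearman correlation 0 of the same 5 genes led, and Tnc was closest (0.931). On single probes, A_52_P435154 of Ifi205 reached 0.889.

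The change of F3 at 4 h was 5.51 ± 0.39 (SE) in P72 and 5.39 ± 0.39 (SE) in R72. Its 4 h levels were −1.98 to −1.20 in P72 and −1.91 to −1.32 in R72, and the single 4 h arrays read −1.42 in p53+/+ and −4.89 in p53-/-, against untreated levels of −6.41 to −5.66 in p53-/-. Bcar1 read −1.82 in p53+/+ and −3.86 in p53-/- at 4 h, and Egfr read −1.98 in p53+/+ and −3.14 in p53-/-. These genes were picked by their likeness to Ifi202b on the P72 and R72 arrays, so their changes carry no test.

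Thymus also holds cells other than thymocytes, and in such bulk samples fewer cells of a type and less RNA per cell cannot be told apart. Thymocyte defining markers were well above background on all 32 arrays, with Cd8a at 6.68 to 7.41 and Rag1 at 6.85 to 7.71. No defining marker of macrophages, dendritic cells, neutrophils or B cells that was analysed was at background throughout, and Flt3 and Siglech of dendritic cells were the dimmest, well above background on 30 of 32 arrays. Dendritic cell markers moved with time in both lines, as Ifi202b did, while the lists of other cells were less even. At 2 h 4 of 11 dendritic cell markers were called higher in P72 and 0 in R72 (2 at an unadjusted p under 0.05). Of all genes 9.64% in P72 and 6.25% in R72 were called higher there. The count in P72 was 2 with median centring and 2 with quantile normalization, and in R72 median centring gave 0 higher and 1 lower. At 4 h 8 were called higher in P72 and 6 in R72, or 4 higher and 1 lower in each line with median centring. The mean level of these markers in P72 was −2.21 to −2.08 at 0 h, −1.90 to −1.55 at 2 h and −1.15 to −1.06 at 4 h. In R72 it was −2.16 to −1.81 at 0 h, −2.11 to −1.69 at 2 h and −1.48 to −1.25 at 4 h. In p53+/+ it was −2.26 and −2.20 untreated, −2.36 at 2 h and −1.28 at 4 h, and in p53-/- it was −2.16 and −2.11 untreated, −2.35 at 2 h and −2.08 at 4 h. The dendritic marker level was thus highest on the same 9 arrays as Ifi202b, but with no wide gap. It was −1.48 or higher on these arrays and reached −1.55 in P72 at 2 h. The median change of these markers at 4 h was 0.97 in P72 and 0.59 in R72, or 0.38 and 0.13 with median centring. Whether dendritic cells had a part in the result was not tested.

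Of 10 neutrophil markers 10 were called higher at 4 h in P72 and 1 in R72, or 4 and 0 with median centring (for R72, 3 at an unadjusted p under 0.05 with the 75th percentile). Before irradiation their mean level was −1.66 to −0.90 in P72 and −0.45 to −0.11 in R72, so that P72 was the lower line at 0 h for these markers as for Ifi202b. The median difference there was −0.94, with 0 of 10 called and 9 at an unadjusted p under 0.05. Their level at 0 h was −1.92 and −1.59 in p53+/+, and −1.59 and −1.56 in p53-/-. R72 thus lay farther from p53+/+ than P72 did for these markers. For Ifi202b P72 lay farther, with 0 h means of −6.50 in P72, −4.88 in R72 and −4.73 in p53+/+. The mean level of the neutrophil markers at 4 h was −0.16 to 0.76 in P72, −0.37 to 0.57 in R72, 0.21 in p53+/+ and −0.74 in p53-/-. Of 14 macrophage markers 8 in P72 and 4 in R72 were called higher at 4 h, or 3 in P72 and 1 in R72, with 2 lower there, under median centring. Their mean level at 4 h was −0.19 to 0.11 in P72 and −0.92 to −0.20 in R72. It was −1.06 and −1.01 untreated and −0.66 at 4 h in p53+/+, and −0.24 and −0.22 untreated and −0.35 at 4 h in p53-/-. The 4 h array was thus above the untreated arrays in p53+/+ and below them in p53-/-. Of 7 B cell markers 2 were called higher and 1 lower in P72, and 2 higher and 2 lower in R72, or 1 higher and 4 lower in P72 and 2 higher and 4 lower in R72 with median centring. Of 12 thymocyte markers 1 was called higher and 5 lower in P72, and 2 higher and 2 lower in R72, or 0 higher and 9 lower in each line with median centring. Beside these counts at 4 h, 35.8% of all genes in P72 and 28.8% in R72 were called higher, and 20.8% and 16% lower. The part of these markers in the result was not tested.

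**Figure D5:**
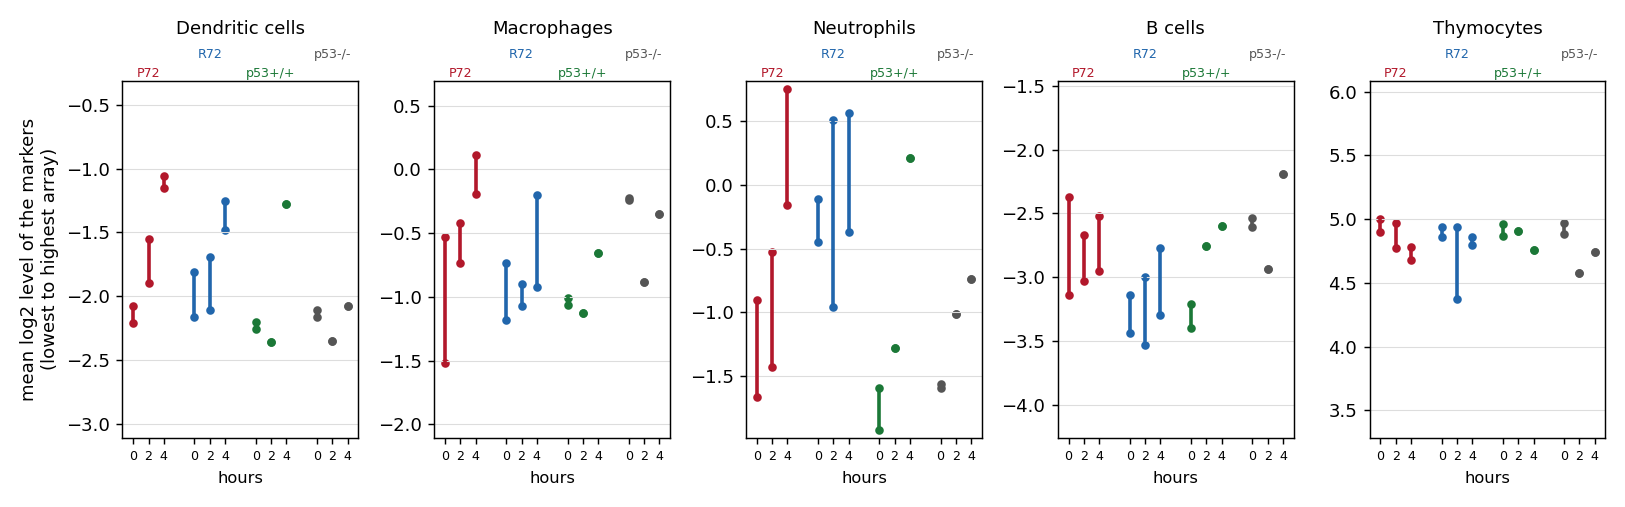
Mean log2 level of the fitted markers of 5 cell types (vertical axes, relative to the array's 75th percentile), from the lowest to the highest array of each group, by mouse line and hours after irradiation. Dendritic cell markers are at −1.48 or higher on the 4 h arrays of P72, R72 and p53+/+ and at −2.08 on that of p53-/-, and they reach −1.55 in P72 at 2 h.

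As a check of the labels, Trp53, the gene in which these lines differ, was read by 2 probes. A_52_P781398 read −0.13 to 0.24 untreated and 0.02 to 0.06 irradiated in p53+/+, and −0.26 to −0.10 untreated and −0.50 to −0.47 irradiated in p53-/-. A_52_P491849 read −1.14 to −0.57 untreated in p53+/+ and −1.81 to −1.57 in p53-/-, against −6.82 to −6.20 in P72 and −7.00 to −5.93 in R72. Both kept signal in p53-/-. Where the probes lie relative to the deleted or replaced part is not given in the sources used here, so they check little. Cdkn1a, a p53 target that arrests the cell cycle, read 1.27 to 1.60 on irradiated p53+/+ arrays and −2.57 to −2.17 on irradiated p53-/- arrays, and it read 0.93 to 1.57 in irradiated P72 and 0.35 to 1.5 in irradiated R72. Over all arrays the 75th percentile of the signal was 268.3 to 1031 fluorescence units, and the share of probes well above background was 52.4% to 71.5%.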

How the data were processed

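RNA of 32 thymocyte samples in 12 groups was measured on single-colour Agilent arrays. The authors deposited the scanner intensity of every spot, produced by Agilent Feature Extraction (9.5.3 in the submitters' processing notes, 9.5.3.1 per the file headers). A spatial trend surface had removed the background and no scaling between arrays had been done, per the file headers. A table of log2 values that the authors also deposited, with no stated normalization, was used as an alternative.

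There were 43379 spots beside 1639 control spots on an array. Outlier spots (0.223% of values) were left out, 0 spots were saturated, and spots of 1 probe were averaged. Each log2 intensity had the array's 75th percentile subtracted. The 29342 probes that passed the background test on 4 arrays or more were kept, and for each of 20535 genes the probe with the highest mean was used. Gene names are those of the files, of which an accession match updated 5141 to current symbols. Where member probes disagreed, each was also fitted on its own. The number of arrays limits the precision.

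Tests were two-sided limma contrasts (limma 3.58.1, R 4.3.3) with Benjamini-Hochberg adjustment over all genes tested and a threshold of 0.05. P72 and R72 were fitted on their 24 arrays, and p53+/+ and p53-/- on all 32, where groups of 1 array borrow the spread of the rest. The 17 comparisons are those of times within P72 and R72, of lines at each time, and of the p53 lines with 2 h and 4 h averaged. Software was data.table (1.17.8), jsonlite (2.0.0), Python (3.11.15) and matplotlib (3.10.9). The fits were tested on simulated data.

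The members, gene lists and tests were chosen with earlier results of these data known. Fewer tests are given than the fixed design names: members have none for changes within a line to 4 h, Ifi202b has none with 4 h arrays, and the genes most like it have none. Named by rule are the members with all their probes, the 5 genes most correlated with Ifi202b, and up to 4 genes per pathway list with the smallest p at 4 h in P72. Cluster neighbours, Trp53, Cdkn1a and markers are named beside these. Alternatives were background correction, normalization, centring, the filter, every probe on its own, blocks for replicate number, slide and scan date, single scan dates, arrays left out, and a floor. The floor, the rescaling of gene lists, named genes and single probes, and the fits of single probes with 1 array left out were chosen after seeing the data.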

Additional observations from a re-analysis of the deposited data

Results flagged for a closer look

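Of 60 sets of 4 arrays, each a member probe in a P72 or R72 group, 4 held an array far from the other 3, by a gap that filled nearly the whole range of the set. Chance gives about 1 in 20. For Ifi202b, 1 R72 array at 2 h read −5.55, below the others at −4.65 to −4.47, and its spot was not well above background. For Ifi204, probe A_52_P83479 read −2.66 on 1 P72 array at 2 h, where its group had a median of −1.70. Probe A_51_P408343 of Ifi204 read 1.92 on 1 P72 array at 2 h, above 1.71 to 1.73 on the others. The same Ifi204 probe read 1.80 on 1 P72 array at 4 h, below 2.03 to 2.04 on the others.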

How the results depend on the processing

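Of 1303 values of the members under alternative settings, 1255 counted as unchanged. A tested value did so if it kept its side of the threshold and, where called, its direction. An untested value did so if it moved by less than the spread. Values that were not called could therefore change sign and still count. Ifi202b in R72 at 2 h changed sign in 4 of 13 settings other than leaving out 1 array. For Ifi202b in P72 at 2 h (2.00), the call was lost with normexp and quantile normalization (0.325), quantile normalization (1.68), the authors' value table (0.532) and within the first (2.42) or second (1.58) scan date. It held with median centring (1.81) and with slide (2.33) or scan date (2.00) as a block. Leaving out 1 array gave 1.55 to 2.49. Members called there were 0 with normexp, quantile normalization, the authors' table, the filter on all 32 arrays (which drops Ifi202b by construction) and within either scan date, 2 with every probe on its own, and 0 to 1 with 1 array left out. Between knock-in lines and p53+/+ untreated, 1 was called with every probe on its own. The 4 h change of Ifi202b in P72 was 2.61 with normexp, 3.35 in the authors' table and 5.26 with the added floor, and in R72 it was 2.49 and 3.07 with the first pair. Leaving out 1 array gave 5.79 to 6.69 in P72 and 4.55 to 4.94 in R72. The cause was not tested.

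By their brightest probes, median centring turned the 4 h change of Ifi203, Ifi204 and Ifi205 in P72 to −0.135, −0.314 and −0.104, and of Ifi203 and Ifi205 in R72 to −0.199 and −0.215. Against 2 h it turned Ifi203 and Ifi204 in P72 to −0.01 and −0.193 and Ifi204 in R72 to −0.103. In irradiated against untreated p53+/+ it turned Ifi203 and Ifi205 to −0.123 and −0.0028.

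Arrays of the same number were not taken as pairs. Their deviations correlated over 0.1 in 10 of 12 pairs within P72 and 10 of 12 within R72. With a replicate block Ifi202b in P72 at 2 h gave 2.00 (adjusted p 0.0159), and no member's call changed. Low signal limits the 0 h and 2 h levels of Ifi202b.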
